A study of Mus musculus with 12 samples.

Results

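Oxidative phosphorylation subunits are the proteins that make up the respiratory chain and the ATP synthase in the inner mitochondrial membrane. They were taken from the gene table by symbol, as protein-coding genes named mt-Nd, mt-Co, mt-Cytb or mt-Atp, Nduf followed by a, b, c, s or v and a digit, Sdha to Sdhd, Uqcr, Cox4 to Cox8, or Atp5. This gave 100 of the 55401 genes in the table, of which 13 are encoded in mitochondrial DNA and 87 in the nucleus. The nuclear genes fell into complex I (38 genes), complex II (4), complex III (8), complex IV (19) and complex V (18). The mitochondrial genes code for 7 subunits of complex I, 1 of complex III, 3 of complex IV and 2 of complex V. The symbols leave out a few subunits with other names, such as Cyc1 and Ndufab1, and place Ndufa4, now known as a subunit of complex IV, with complex I.

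RNA was sequenced from mouse satellite cells, the Pax7-expressing stem cells of skeletal muscle, which were sorted from digested hind limb muscle by the fluorescence of a Pax7-ZsGreen reporter. Knockout (KO) mice carried floxed alleles on both copies of Cxcr4 (CXCR4 FL/FL), Pax7-creERT2, whose tamoxifen-activated recombinase is made in Pax7-expressing cells, and Pax7-ZsGreen. Wild-type (WT) mice carried CXCR4 FL/FL and Pax7-ZsGreen without the recombinase, so both genotypes share the floxed alleles and the reporter, and tamoxifen was given to the mice at 80 mg/kg on 5 consecutive days. Quiescent cells (4 WT and 4 KO libraries) were taken directly after sorting, and activated cells (2 WT and 2 KO libraries) were cultured overnight. The labels give neither the age nor the sex of the mice, and do not say whether libraries of a group came from different animals, so the p-values measure only the spread between these libraries.

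Cxcr4 itself, the deleted gene, had 59.1 to 112 CPM (counts scaled to library size) in the quiescent WT libraries and 12.5 to 21.2 in the quiescent KO libraries. In activated cells it had 33.3 and 14.4 CPM in WT and 5.39 and 13.7 CPM in KO, and the log2 fold change of -1.35 ± 0.46 (SE) did not pass the test (edgeR adjusted p = 0.381). Total counts ran from 12775593 to 23717013 in quiescent libraries and from 3172164 to 5427280 in activated ones. A ribosomal RNA gene, CT010467.1, took 0.295 to 0.807% of counts in quiescent and 11.5 to 40.3% in activated libraries, so shares of counts are given without it where stated. Sex-linked genes also changed with the state of the cells. Summed Y-linked transcripts were at 431 to 715 CPM in quiescent libraries against 0.438 to 6.04 in activated libraries, and Xist was at 1.204 to 7.17 against 451 to 817 CPM. State, culture and the sex of the mice therefore cannot be told apart in any comparison of activated with quiescent cells. The satellite cell markers summed to 5599 to 8153 CPM in quiescent cells, so the labelled cell type is present, and markers of endothelial cells (353 to 1743 CPM), fibroadipogenic progenitors (827 to 3845) and smooth muscle or pericytes (1465 to 2701) were counted beside them.

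In the respiratory chain, complexes I and II pass electrons from NADH and succinate to coenzyme Q, complex III passes them on to cytochrome c, and complex IV passes them to oxygen. Complexes I, III and IV pump protons as they do so, and complex V lets the protons flow back to make ATP. All complexes but complex II are mosaics of the mitochondrial and the nuclear genome, so that the catalytic core of complexes I, III and IV and the proton channel of complex V depend on transcripts made inside the organelle. Quiescent satellite cells are known for a low mitochondrial activity, which rises as they enter the cell cycle and again as myoblasts build contractile fibres.

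Counts of the mitochondrial genes spanned a wide range of levels and fell into a high and a low set. Per kilobase of exon, 7 of the 13 genes had mean levels of 1512 to 9869 CPM in quiescent WT libraries, and the other 6 had 5.00 to 35.1 CPM, with no gene between. Mt-Co1, the catalytic subunit of complex IV, was highest at 9869 ± 1752 CPM per kb (SD, n = 4). It was followed by mt-Cytb, the electron-carrying subunit of complex III, at 6715 ± 1240, and by mt-Nd1 at 4518 ± 878, mt-Nd2 at 3092 ± 572, mt-Nd5 at 2116 ± 412, mt-Nd4 at 1681 ± 290 and mt-Nd6 at 1512 ± 302. From mt-Nd1 down, each of these differed from the next by less than the sum of their SDs, whereas mt-Co1 and mt-Cytb, and mt-Cytb and mt-Nd1, differed by more. The 6 low genes were mt-Atp6 at 35.1 ± 6.69, mt-Co2 at 32.8 ± 5.68, mt-Co3 at 19.4 ± 3.39, mt-Nd3 at 16.5 ± 1.498, mt-Nd4l at 10.1 ± 3.09 and mt-Atp8 at 5.00 ± 1.02 CPM per kb. All 6 were also the lowest of the 13 in the other 3 groups, and together they held 0.172 to 0.261% of the mitochondrial counts in any library.

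Of these 6 low genes, 5 have a nearly complete second copy in the nuclear genome, and the copy is annotated as a gene of its own. A block of mitochondrial sequence on the minus strand at chr1:24611535-24616197 (GRCm38, GENCODE M21) holds 7 such pseudogenes over 4663 bases. Its Gm28661 matches 681 of the 684 bases of mt-Co2 with 0 mismatches, Gm10925 matches 678 of 681 bases of mt-Atp6, and Gm28437 matches 783 of 784 bases of mt-Co3, both also with 0 mismatches. The complex I gene mt-Nd4l (ENSMUSG00000065947), at chrM:9877-10173 on the plus strand, is printed whole because all of it but the 3 capital letters, the last 3 bases, is repeated letter for letter in Gm10222.
mt-Nd4l: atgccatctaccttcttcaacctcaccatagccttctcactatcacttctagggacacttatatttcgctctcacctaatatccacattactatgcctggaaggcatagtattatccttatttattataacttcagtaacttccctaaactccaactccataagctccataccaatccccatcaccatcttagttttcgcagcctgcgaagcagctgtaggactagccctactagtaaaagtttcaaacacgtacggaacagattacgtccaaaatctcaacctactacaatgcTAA

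Copies that differ leave bases by which a read can be placed. Mt-Nd2 (chrM:3914-4951, plus strand) has a copy of its last 510 bases, Gm13339, on chromosome 2, with 17 mismatches. Bases 662 to 781 of mt-Nd2, at chrM:4575-4694 on the plus strand, and the matching stretch of Gm13339, at chr2:22590281-22590400 on the minus strand, are set side by side to show this. Capitals mark the 7 bases that differ, A668G, C681T, T711C, T726C, C759T, C780T and T781C, with the base of mt-Nd2 first and positions counted from 1 at the start of mt-Nd2.
mt-Nd2: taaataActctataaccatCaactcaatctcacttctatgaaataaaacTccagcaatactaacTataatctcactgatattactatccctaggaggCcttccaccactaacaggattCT
Gm13339: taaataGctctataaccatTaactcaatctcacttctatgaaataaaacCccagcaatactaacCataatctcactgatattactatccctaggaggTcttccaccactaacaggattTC

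The share of a gene's 100-base windows that also occur in another annotated gene was 97.6% for mt-Nd3, 98.5% for mt-Nd4l, 99.5% for mt-Co2, 99.5% for mt-Atp6 and 99.9% for mt-Co3. It was 60.8% for mt-Nd4 and 30.8% for mt-Co1, whose copy Gm29216 covers the last 483 of 1545 bases with a single mismatch, A1066T. How the authors' counting treated reads that fit both places is not given in the sources used here. Most copies of the low genes were counted at levels near those of the genes. In quiescent WT libraries Gm28661 had 24.8 ± 5.27 CPM beside 22.4 ± 3.88 for mt-Co2, Gm10925 had 26.0 ± 3.87 beside 23.9 ± 4.56 for mt-Atp6, and Gm28437 had 14.4 ± 2.23 beside 15.2 ± 2.66 for mt-Co3 (n = 4). Gm28438 was lower than its gene, with 1.54 ± 0.467 beside 5.74 ± 0.521 for mt-Nd3. Adding gene and copy gave 69.1 CPM per kb for mt-Co2, still far under the 1512 of mt-Nd6, the lowest of the 7 high genes. Mt-Atp8 was the exception among the 6, as it was lowest although none of its windows occur in another gene. It is 204 bases long, and 161 of these lie in the stretch between mt-Co2 and mt-Atp6, whose counterpart between Gm28661 and Gm10925 in the block is unannotated, while the other 43 overlap mt-Atp6. For the 6 low genes, and in part for mt-Nd4 and mt-Co1, the values below are therefore counts of the reads kept for the gene, and levels of transcript cannot be read from them.

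**Figure D1:**
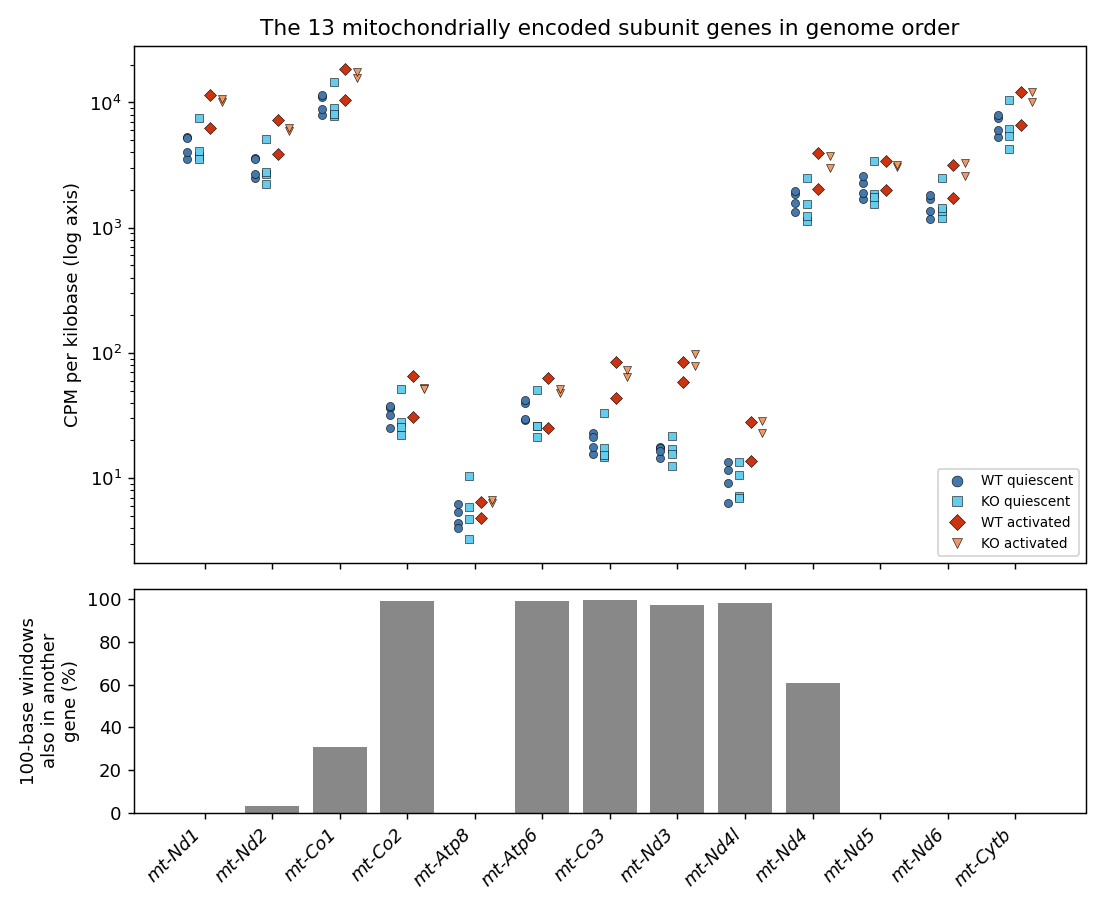
Levels of the 13 mitochondrially encoded genes in each library (top, CPM per kb of exon, log axis, 1 point per library, coloured by group) and the percentage of each gene's 100-base windows that also occur in another annotated gene (bottom, bars). The 7 genes at 1512 CPM per kb or more in quiescent WT libraries have bars of up to 60.8%, and 5 of the 6 low genes have bars of 97.6% or more, with mt-Atp8 the exception at 0%.

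Nuclear genes were read at lower levels, per length, than the 7 high mitochondrial genes, and with a wide range of their own. Of the 87 nuclear genes, 84 passed the filter on low counts. The median of these 84 was 7.61 CPM per kb in quiescent WT libraries, from 0.975 for Atp5g2 to 177 for Cox6a1. The highest were Cox6a1 at 177 ± 25.4 and Cox8a at 159 ± 13.2, which are small subunits of complex IV, and Atp5b, the catalytic beta subunit of ATP synthase, at 150 ± 19.98 CPM per kb (SD, n = 4). These 3 did not differ beyond their spread on this length, which joins the exons of all transcripts of a gene. For Atp5b it is 4237 bases, while its coding transcripts hold 1817 distinct windows of 100 bases. In CPM, Atp5b had 515 to 740 over the quiescent libraries, Cox6a1 had 97.2 to 143 and Cox8a had 90.003 to 110. The order of nuclear genes per length thus depends on the length used. In the other complexes the leading genes were Atp5d of the ATP synthase stalk at 70.5 ± 7.13, the complex I accessory subunits Ndufb11 at 61.1 ± 6.39 and Ndufb10 at 39.7 ± 6.23, the Rieske iron-sulphur protein Uqcrfs1 of complex III at 38.3 ± 4.23 with Uqcr10 at 35.9 ± 5.74, and, in complex II, the membrane anchor Sdhd at 19.97 ± 1.67 with the flavoprotein Sdha at 16.8 ± 2.50. In complex II, whose subunits assemble one to one, the iron-sulphur subunit Sdhb had the lowest level at 3.13 CPM per kb.

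The subunits differed in how much they varied among the 8 quiescent libraries. Cox8a had the smallest spread, with 90.003 to 110 CPM and an SD of 0.09 on the log2 scale. Ndufa4l2, the alternative form of Ndufa4 that is induced by low oxygen, had the largest, with 3.78 to 30.4 CPM and an SD of 1.02, followed by the testis form Cox6b2 with 1.57 to 9.10 CPM and, with SDs of 0.65, 0.63, 0.62 and 0.61, by Atp5mpl, Cox6a2, Cox7a1 and Ndufa4. The median SD was 0.28 for the 72 nuclear genes with a mean of at least 5 CPM and 0.38 for 11 mitochondrial genes, which moved together between libraries. KO quiescent replicate 2 was the highest of the 8 libraries for 12 of the 13 mitochondrial genes, and WT activated replicate 1 was the lowest of the 4 activated libraries for all 13.

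The remaining 3 nuclear rows did not pass the filter. Cox7b2, a testis form, had counts only in quiescent WT replicates 3 and 4 (0.132 and 0.0482 CPM). Cox8c, another testis form, had 0.209, 0, 0.0877 and 0.289 CPM in quiescent WT, 0.374 CPM in quiescent KO replicate 3, and 0 in every other library. A second row named Atp5o (ENSMUSG00000116933) had 0 counts in all 12 libraries, beside the counted Atp5o row.

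The loss of Cxcr4 was compared within quiescent cells first. None of the 97 subunits tested changed between KO and WT quiescent cells (edgeR quasi-likelihood test, 0 called at an adjusted p under 0.05, where 4 of 25771 genes, 0.0155%, were called), and DESeq2 also called 0. The median log2 fold change was 0.06 for the 84 nuclear genes and 0.02 for the 13 mitochondrial genes, against 0.02 for all genes tested. Log2 fold changes ran from -0.81 for Uqcr11 to 0.50 for Sdhb, and 61 of 97 were above 0. An unadjusted p under 0.05 was found for Uqcr11 alone, a small subunit of complex III that was singled out after its values were seen. Uqcr11 had 4.28, 5.39, 5.48 and 4.48 CPM in the WT libraries and 2.03, 2.66, 3.20 and 3.31 CPM in the KO libraries. The KO libraries were all below the WT libraries, with a log2 fold change of -0.81 ± 0.32 (SE, edgeR adjusted p = 1). The groups were also apart for Ndufa5, Ndufs1 and Ndufb8, at log2 fold changes of 0.44, 0.36 and 0.23, so that 4 of 97 genes (4.12%) did not overlap, against 1.70% of all genes tested.

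In activated cells, again, no subunit was called between KO and WT (edgeR, 0 of 97, where 13 of 25771 genes, 0.0504%, were called), nor by DESeq2. The medians lay above 0 for both genomes, at 0.20 for nuclear and 0.21 for mitochondrial genes against 0 for all genes tested. This direction rested on 1 library, as the medians were -0.04 and -0.24 without activated WT replicate 1, and 0.32 and 0.65 without activated WT replicate 2. In the fit of all libraries 76 of 97 subunits had a positive log2 fold change. With 2 libraries in each group, 29 of 97 (29.9%) did not overlap, against 24.7% of all genes. An unadjusted p under 0.05 was found for Ndufa11, Ndufb11 and Cox6c. Ndufb11, an accessory subunit of the membrane arm of complex I, had 48.7 and 64.4 CPM in WT and 75.5 and 97.9 CPM in KO activated libraries. Both KO libraries were above both WT libraries, with a log2 fold change of 0.62 ± 0.28 (SE, edgeR adjusted p = 0.581). Ndufa11, another accessory subunit of that arm, had 2.61 and 1.31 CPM in WT and 6.16 and 3.88 CPM in KO, a log2 fold change of 1.25 ± 0.59 that also failed the adjustment (edgeR adjusted p = 0.595). Cox6c, a small subunit of complex IV, had 11.8 and 11.4 CPM in WT and 21.3 and 24.6 CPM in KO (0.99 ± 0.38, edgeR adjusted p = 0.467).

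The difference of the KO effect between the states was tested in the same model, and 0 of 25771 genes (0%) were called by edgeR. Among the subunits, Ndufb11 (0.72 ± 0.34) and Cox6c (0.99 ± 0.46) had an unadjusted p under 0.05 for this difference, on the log2 scale. DESeq2 called 45 genes for it, 0 of them subunits.

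**Figure D2:**
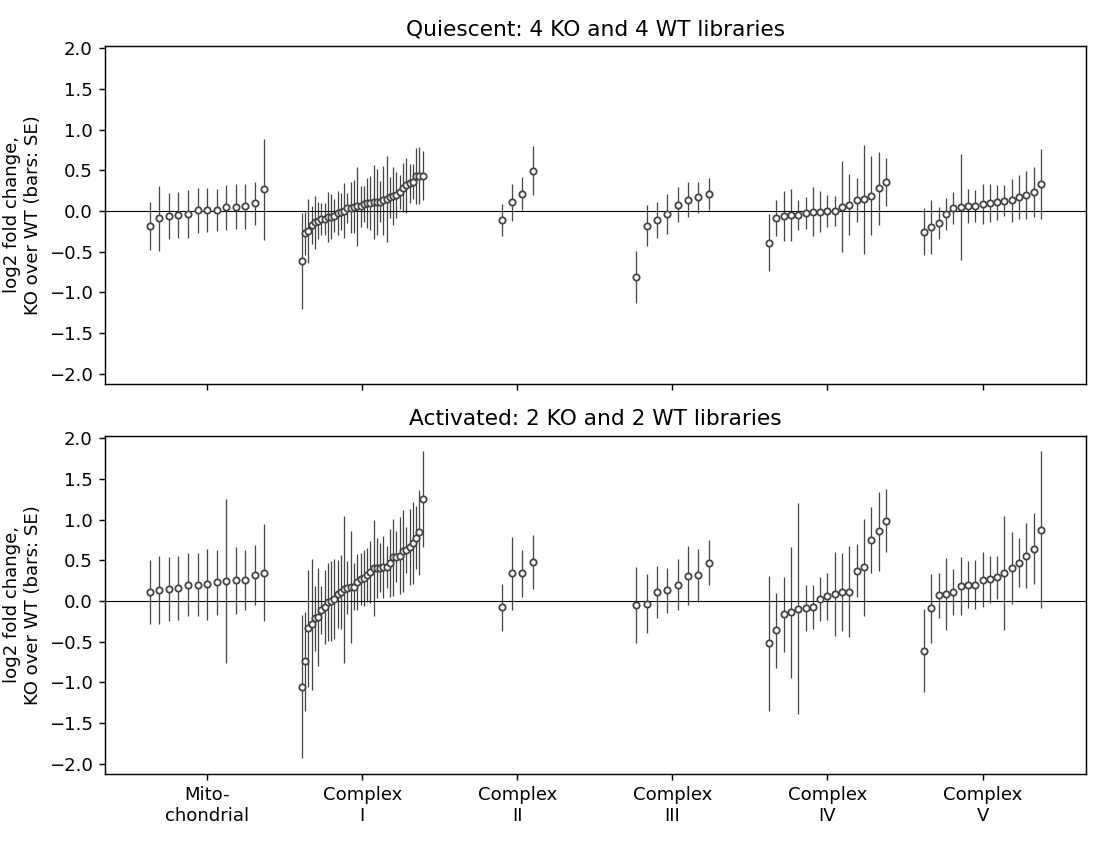
Log2 fold change of KO over WT (± SE) for each subunit tested, by mitochondrial genome and by nuclear complex, in quiescent cells and in activated cells. No gene passed the edgeR test in either state, and the bars of activated cells, with 2 libraries a group, are the longer ones.

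Overnight culture, in contrast, went with higher counts for many subunits, while the median of all genes was below 0. In WT cells 24 of the 97 subunits rose and 2 fell (edgeR, adjusted p under 0.05), where 29.8% of all genes tested were called, 11.5% higher and 18.3% lower. In KO cells 40 rose and 2 fell, where 33.7% of all genes were called, 13.3% higher and 20.4% lower. Without activated WT replicate 2 the WT count was 15 in all, and without activated KO replicate 2 the KO count was 22. The share of subunits that rose, 24.7% in WT and 41.2% in KO, compares with 15.0% and 16.7% of all protein-coding genes tested. The median log2 fold change of the 97 was 0.39 in WT and 0.69 in KO, against -0.92 and -0.96 for all genes. With a minimum of 2-fold and a mean count over 10 added, 20 subunits were called in WT and 34 in KO, where 26.4% and 29.7% of all genes were. The groups of libraries did not overlap for 51.5% of subunits in WT and 64.9% in KO, against 56.0% and 54.4% of all genes. In both genotypes 25 subunits were called, which is 96.2% of the WT calls and 59.5% of the KO calls. Of these 25, 24 were higher and 1 was lower in both. The WT and KO comparisons have no library in common, but they come from 1 fit that shares its estimate of the spread. State, culture and sex go together in both. The same overlap was not counted over all genes, so it is not read as a result about the subunits. In bulk libraries such as these, a change in the mixture of cells and a change of RNA per cell cannot be told apart.

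**Figure D3:**
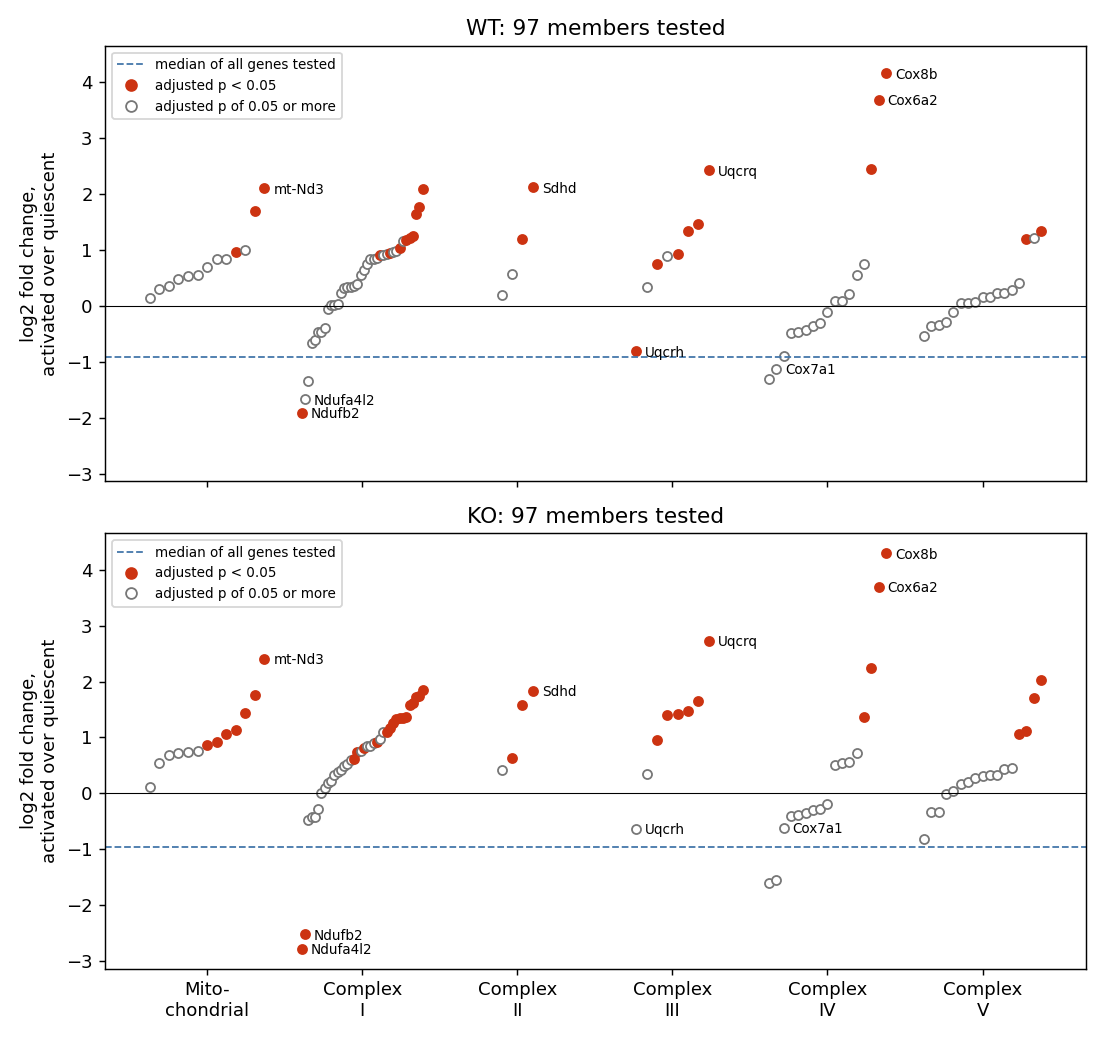
Log2 fold change of activated over quiescent cells for each subunit tested, by mitochondrial genome and by nuclear complex, in WT and KO. Filled points passed the edgeR test (adjusted p under 0.05) and the dashed line is the median of all genes tested (-0.92 in WT, -0.96 in KO). Complexes II and III sit highest among the nuclear sets, and complex IV has its median near 0 with Cox8b and Cox6a2 far above it.

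Complex I, the NADH dehydrogenase, had 9 nuclear subunits higher and 1 lower of 38 in WT, and 16 higher and 2 lower in KO. The shares higher were 23.7% and 42.1%, against 11.5% and 13.3% of all genes. The shares lower were 2.63% and 5.26%, against 18.3% and 20.4%. The medians were 0.60 and 0.79. Ndufb8, an accessory subunit of the membrane arm, had 10.6 to 12.4 CPM in quiescent WT and 12.8 to 15.9 CPM in quiescent KO libraries. In activated libraries it had 41.0 and 59.6 CPM in WT and 43.9 and 48.8 CPM in KO, well apart from every quiescent library. It rose by a log2 fold change of 2.08 ± 0.25 in WT and 1.74 ± 0.25 in KO (edgeR adjusted p = 3.51e-06 and 2.13e-05), and was chosen for its size after its values were seen. So were Ndufs6, a zinc-binding subunit of the electron-input module (1.77 in WT and 1.63 in KO), and Ndufa10 of the membrane arm (1.25 and 1.72), which rose in both genotypes. Ndufa4 rose as well, from 4.65 to 14.8 CPM over the 8 quiescent libraries to 20.6 to 27.6 CPM in the activated ones (1.64 ± 0.41 in WT, 1.35 ± 0.41 in KO, edgeR adjusted p = 0.00521 and 0.0156). The KO call of Ndufa4 was lost without activated KO replicate 2 (1.2, edgeR adjusted p = 0.122). The most abundant complex I subunits per length moved less. Ndufb10 was not called in either genotype (-0.06 and 0.22), and Ndufb11 was called only in KO (0.02 in WT, 0.74 ± 0.23 in KO, edgeR adjusted p = 0.0196), although the difference between the genotypes was not called (edgeR adjusted p = 0.754) and the KO call of Ndufb11 was lost without activated KO replicate 2 (adjusted p = 0.28).

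The complex I subunit Ndufb2 went the other way. It had 20.7, 14.8, 19.0 and 14.8 CPM in quiescent WT and 16.4, 14.8, 14.5 and 17.2 CPM in quiescent KO libraries. Activated cells had 1.96 and 8.32 CPM in WT and 1.28 and 4.11 CPM in KO, so all 4 lay below all 8, with the replicates of each pair far apart. It fell by 1.92 ± 0.50 in WT and by 2.52 ± 0.51 in KO on the log2 scale (edgeR adjusted p = 0.00625 and 0.000785). Without activated WT replicate 1 Ndufb2 was no longer called in WT (-0.98, edgeR adjusted p = 0.25). Of its windows, 2.14% also occur in 2 other genes, most of them in the neighbouring gene Braf. Ndufa4l2, the counterpart of Ndufa4, had 7.15 to 24.3 CPM in quiescent WT and 3.78 to 30.4 CPM in quiescent KO libraries, against 5.88 and 3.07 CPM in activated WT and 1.28 and 3.19 CPM in activated KO. It fell by 2.78 ± 0.77 in KO, which passed the test (edgeR adjusted p = 0.00929), and had a log2 fold change of -1.67 ± 0.70 in WT, which did not (0.0784) but passed in 4 of 7 other settings, and the KO call was lost without activated KO replicate 1 (-2.31, adjusted p = 0.0944). Ndufa4l2 is known from pericytes and hypoxic cells, and smooth muscle and pericyte markers moved the same way. Of 8 such markers, 5 were lower in WT and 6 in KO, where 18.3% and 20.4% of all genes were lower. These markers had summed levels of 1465 to 2701 CPM in quiescent against 217 to 365 CPM in activated libraries. Their part in the fall of Ndufa4l2 was not tested.

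Complex II, the succinate dehydrogenase that also serves the citric acid cycle, showed its rise in the membrane anchors. Sdhd had 21.8 to 26.7 CPM in quiescent WT and 24.2 to 38.7 CPM in quiescent KO libraries, and 97.5 and 117 CPM in activated WT and 106 and 97.4 CPM in activated KO libraries. The activated libraries were all far above the quiescent ones, by 4.35-fold in WT and 3.56-fold in KO (log2 fold changes of 2.12 ± 0.24 and 1.83 ± 0.24, edgeR adjusted p = 2.01e-06 and 8.92e-06). Sdhc, the other anchor, had 38.6 to 49.95 CPM in quiescent WT and 36.5 to 70.2 CPM in quiescent KO, and 77.8 and 126 CPM in activated WT and 125 and 158 CPM in activated KO libraries. These groups too did not overlap, and Sdhc rose by 1.2 ± 0.28 and 1.58 ± 0.27 on the log2 scale (adjusted p = 0.00262 and 0.000181, edgeR), although the WT call of Sdhc was lost without activated WT replicate 2 (0.88, adjusted p = 0.0902). The catalytic pair moved less. Sdha had 60.4 to 82.8 CPM in quiescent WT and 62.4 and 95.9 CPM in activated WT libraries, which overlapped, and it was called only in KO, from 58.1 to 70.6 up to 87.8 and 112 CPM (0.64 ± 0.24, edgeR adjusted p = 0.0475). That call of Sdha was lost when any of 8 of the 12 libraries was left out, each activated one among them (adjusted p up to 0.384, without activated KO replicate 2). Sdhb was called in neither genotype (0.57 and 0.41, adjusted p = 0.256 and 0.382).

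Complex III contains cytochrome b and hands electrons to cytochrome c. Of its 8 nuclear subunits, 5 were higher and 1 was lower in WT, and 6 were higher in KO. The shares higher were 62.5% and 75%, against 11.5% and 13.3% of all genes, and the WT share was larger than in any other complex. The medians were 0.91 and 1.41. Uqcrq, a small accessory subunit, had 23.5, 26.5, 26.1 and 27.9 CPM in quiescent WT and 28.0, 33.5, 31.6 and 23.9 CPM in quiescent KO libraries. In activated libraries it had 116 and 165 CPM in WT and 184 and 205 CPM in KO. It rose 5.39-fold in WT and 6.65-fold in KO, with log2 fold changes of 2.43 ± 0.23 and 2.73 ± 0.23 (edgeR adjusted p = 2.63e-07 and 5.53e-08). The Rieske protein Uqcrfs1 (1.47 and 1.40) and Uqcr10 (1.34 and 1.47), the most abundant per length, rose in both genotypes. The hinge protein Uqcrh, which docks cytochrome c, had 20.9 to 33.3 CPM in quiescent WT and 16.0 and 15.3 CPM in activated WT libraries. It fell by 0.81 ± 0.29 on the log2 scale in WT (edgeR adjusted p = 0.0396) and had -0.63 ± 0.28 in KO (0.0873), and this WT call held in only 3 of 7 other settings. It was lost when any of 9 of the 12 libraries was left out, each activated one among them (edgeR adjusted p up to 0.263, without activated WT replicate 1).

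Complex V, the ATP synthase, had 2 of 17 nuclear subunits higher in WT (11.8%, against 11.5% of all genes) and 4 of 17 in KO (23.5%, against 13.3%), with medians of 0.17 and 0.31. The abundant catalytic subunit Atp5b had 515 to 709 CPM in quiescent WT, 546 to 740 in quiescent KO, 465 and 540 in activated WT and 513 and 541 CPM in activated KO libraries. The groups overlapped in WT but not in KO, and neither log2 fold change passed the test (-0.34 and -0.33, edgeR adjusted p = 0.276 in both). The stalk subunit Atp5d was not called either (0.17 and 0.33). The c-ring, the rotor through which protons pass, is coded by 3 genes for the same mature protein, and these were read out after their values were seen. Atp5g1 had 32.6 to 45.5 CPM in quiescent WT and 30.5 to 55.5 CPM in quiescent KO, and 87.2 and 101 CPM in activated WT and 128 and 132 CPM in activated KO libraries. It rose by 1.34 ± 0.25 and 1.70 ± 0.25 on the log2 scale (edgeR adjusted p = 0.000454 and 3.13e-05), whereas Atp5g3 was called in neither genotype (0.17 and 0.31). Atp5g2 was counted at 0.0683 to 3.29 CPM in quiescent and 3.503 to 7.19 CPM in activated libraries and was called in KO alone (2.03 ± 0.78, edgeR adjusted p = 0.0495), with 34.7% of its windows also in the pseudogene Gm10175.

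Complex IV, cytochrome c oxidase, is the complex in which mammals exchange small nuclear subunits between tissues. Cox6a2, Cox7a1 and Cox8b are the forms of heart and skeletal muscle, and Cox6a1, Cox7a2 and Cox8a are their general partners. In this complex 3 of 17 nuclear subunits rose in WT (17.6%, against 11.5% of all genes) and 4 in KO (23.5%, against 13.3%), with medians of -0.12 and -0.19. The subunits with the highest fold changes of all 97 in both genotypes were 2 of the muscle forms. Cox8b had 1.46, 4.97, 2.72 and 1.59 CPM in quiescent WT and 6.47, 1.43, 2.37 and 2.55 CPM in quiescent KO libraries. It had 24.7 and 71.8 CPM in activated WT and 52.7 and 74.1 CPM in activated KO libraries. No activated library came near a quiescent one, and the rise was 17.9-fold in WT and 19.7-fold in KO (log2 4.16 ± 0.52 and 4.30 ± 0.52, edgeR adjusted p = 6.4e-06 and 3.29e-06). The size in WT depended on the library, at 9.68-fold without activated WT replicate 2 and 28.6-fold without replicate 1.

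Cox6a2 behaved alike, with 5.88 to 14.9 CPM in quiescent WT, 4.96 to 18.4 CPM in quiescent KO, 66.8 and 186 CPM in activated WT and 99.1 and 168 CPM in activated KO libraries. It rose 12.9-fold in WT (log2 3.68 ± 0.44) and 13-fold in KO (3.70), with edgeR adjusted p = 3.86e-06 and 3.15e-06, and the WT rise was 7.13-fold without activated WT replicate 2 and 20.1-fold without replicate 1. The general partners did not rise. Cox8a had 90.003 to 110 CPM over the quiescent libraries and 61.1 to 83.5 CPM over the activated ones, with log2 fold changes of -0.47 and -0.40 that did not pass the test (edgeR adjusted p = 0.129 and 0.183), and Cox6a1 had -0.31 and -0.39 (0.321 and 0.21). Per length, Cox6a2 was above Cox6a1 in 3 of the 4 activated libraries, with 274, 146 and 247 against 133, 134 and 136 CPM per kb, and below it in activated WT replicate 1 (98.3 against 152). Cox8b was above Cox8a in the same 3 libraries, with 199, 146 and 206 against 121, 135 and 98.8 CPM per kb, and below it in activated WT replicate 1 (68.5 against 109). In all 8 quiescent libraries both muscle forms were below their partners. These levels divide by all annotated exons of a gene, 702 bases for Cox6a1 and 619 for Cox8a. Coding transcripts of these partners hold 472 and 451 distinct windows of 100 bases. Cox6a2 has 581 windows in 680 bases, and Cox8b has 261 in 360. A length of coding transcripts alone would therefore raise the partners more. The order of partners depends on the length used, and it was not tested.

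The third muscle form did not follow. Cox7a1 had 7.41, 11.4, 18.7 and 17.1 CPM in quiescent WT and 5.39 and 7.44 CPM in activated WT libraries, with a log2 fold change of -1.12 ± 0.49 (edgeR adjusted p = 0.0888), and -0.61 in KO (0.299). Its partner Cox7a2 was not called either (-0.35 and 0.57). Of the other exchangeable pairs, the lung form Cox4i2 was low throughout (0 to 3.78 CPM) beside Cox4i1 (67.1 to 120 CPM), and the testis form Cox6b2 ran from 0.913 to 9.10 CPM beside Cox6b1 at 6.10 to 13.1 CPM, and none of these 4 was called. Cox7b, the partner of the testis form Cox7b2, rose in KO from 6.47 to 12.8 up to 22.6 and 26.0 CPM (1.36 ± 0.33, edgeR adjusted p = 0.00311) and had 0.75 in WT (0.101). The remaining call in complex IV was Cox5b-ps, at 0.519 to 1.78 CPM in quiescent and 2.94 to 7.44 CPM in activated libraries (2.44 ± 0.68 in WT, 2.25 ± 0.67 in KO, edgeR adjusted p = 0.01 and 0.0136). It has 21.3% of its windows in common with Cox5b, which had 15.6 to 24.3 CPM in quiescent and 21.0 to 30.8 CPM in activated libraries and was not called (0.08 and 0.54), so reads of both rows are uncertain. The WT call of Cox5b-ps was lost without activated WT replicate 2 (adjusted p = 0.232), and its KO call without either activated KO library (0.0703 and 0.0965).

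**Figure D4:**
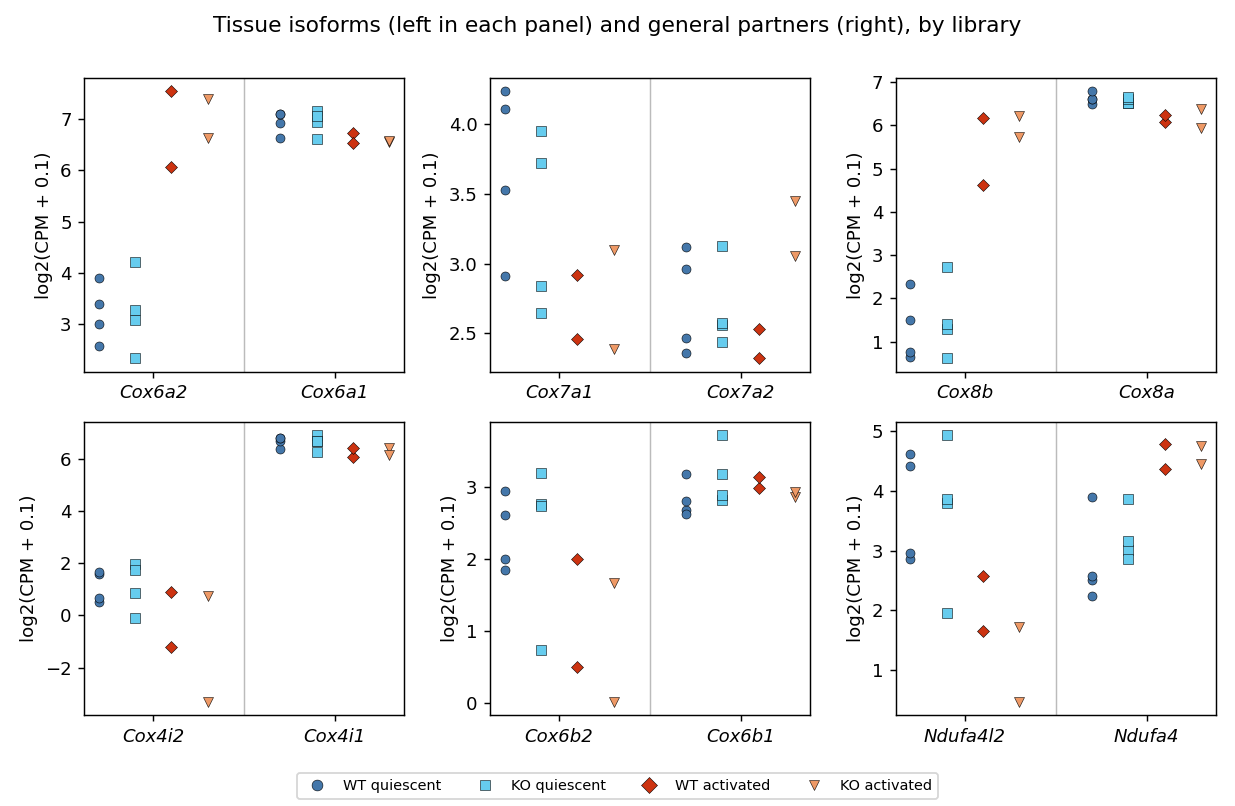
Levels of 6 tissue-specific subunit forms and their general partners in each library (log2 of CPM + 0.1, 1 point per library). Cox8b and Cox6a2 are higher in all 4 activated libraries than in all 8 quiescent ones, while Cox8a and Cox6a1 stay at 61.1 to 110 and 93.3 to 143 CPM over the 12 libraries.

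Markers of muscle fibres, in which Cox6a2 and Cox8b are known to be used, moved in the same direction as both genes. All 16 fibre markers tested were higher in activated cells in both genotypes (edgeR), with summed levels of 469 to 1430 CPM in quiescent and 10400 to 23897 CPM in activated libraries. Over all genes tested, 11.5% rose and 18.3% fell in WT, and 13.3% rose and 20.4% fell in KO. Satellite cell markers fell, 10 of 12 in WT and 11 of 12 in KO, from 5599 to 8153 down to 1870 to 2519 CPM. Of 10 endothelial markers 4 fell in WT and 3, or 30%, in KO, the latter not far above the 20.4% of all genes. Their summed levels were 353 to 1743 CPM in quiescent and 145 to 854 in activated libraries. Of 10 fibroadipogenic markers 4 fell in both genotypes and 1 rose in KO (827 to 3845 against 360 to 818 CPM), and of 10 blood markers 4 fell in WT and 7 in KO (136 to 442 against 88.9 to 137 CPM). The part of any of these cells in the rise of Cox6a2 and Cox8b was not tested. Without the 8 tissue forms, 19 nuclear subunits rose and 2 fell of 78 in WT, and 31 rose and 1 fell in KO. The shares that rose were 24.4% and 39.7%, against 11.5% and 13.3% of all genes.

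The start regions of these partners are shown because the muscle and the general forms moved apart. The sequences, of GRCm38.p6 from RefSeq, are the 250 bases before the annotated start, and all 3 genes lie on the minus strand, Cox8b at chr7:140900447-140900696, Cox8a at chr19:7217617-7217866 and Cox6a1 at chr5:115348959-115349208. Capitals mark CAGCTG, an E-box of the kind bound by myogenic factors, and the letters GCATGCG and CCGGAAG on either strand, the cores of sites for NRF1 and for ETS-family factors, which are known from promoters of respiratory genes. In Cox6a1 the first of these is present on both strands in overlap.
Cox8b: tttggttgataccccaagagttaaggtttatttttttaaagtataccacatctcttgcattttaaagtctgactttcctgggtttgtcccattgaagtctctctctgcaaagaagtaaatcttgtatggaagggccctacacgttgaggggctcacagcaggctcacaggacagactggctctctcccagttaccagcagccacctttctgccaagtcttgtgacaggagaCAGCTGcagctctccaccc
Cox8a: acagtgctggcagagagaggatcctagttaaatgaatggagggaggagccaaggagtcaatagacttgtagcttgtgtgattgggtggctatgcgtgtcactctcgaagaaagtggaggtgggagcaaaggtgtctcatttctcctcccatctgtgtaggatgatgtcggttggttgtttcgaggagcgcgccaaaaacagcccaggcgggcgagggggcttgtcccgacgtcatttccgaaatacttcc
Cox6a1: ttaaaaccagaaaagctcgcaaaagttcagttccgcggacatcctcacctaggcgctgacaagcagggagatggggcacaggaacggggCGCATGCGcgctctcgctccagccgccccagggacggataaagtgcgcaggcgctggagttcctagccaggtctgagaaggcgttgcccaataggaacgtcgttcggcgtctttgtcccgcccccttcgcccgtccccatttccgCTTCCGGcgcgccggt

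Cox8b has its E-box 19 bases before the start, with another CAGCTG and a TATAAA inside the transcript, and holds neither of the other motifs in the window. Cox8a holds the ETS core across its start and again inside the transcript, and Cox6a1 holds GCATGCG from 161 bases and the ETS core from 16 bases before its start. Over windows of 250 bases before and 50 after the start, 68 of 86 nuclear symbols had an entry, and Cox6a2 had none. Searched on both strands, CCGGAAG was in 17 of these 68 (25%, against 9.93% of 27025 genes), GCATGCG in 11 (16.2%, against 4.01%), CAGCTG in 6 (8.82%, against 18.3%) and TATAAA in 8 (11.8%, against 15.7%). The 27 subunits that rose in WT or KO and the other 41 held CCGGAAG in 25.9% and 24.4%, and GCATGCG in 14.8% and 17.1%. They held CAGCTG in 3.7% and 12.2%, where Cox8b was the 1 subunit that rose, and TATAAA in 11.1% and 12.2%. These are matches of letters and not sites.

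Some of the mitochondrially encoded genes rose on activation. In WT, 3 of 13 rose, mt-Nd1, mt-Nd3 and mt-Co3 (23.1%, against 25% of the nuclear subunits and 11.5% of all genes). In KO 7 of 13 rose, with mt-Nd2, mt-Nd4, mt-Nd4l and mt-Nd6 added (53.8%, against 39.3% and 13.3%), and none fell in either genotype. In WT, mt-Nd2 and mt-Nd4 missed the threshold (edgeR adjusted p = 0.0634 and 0.0628) and passed it in 6 of 7 other settings. All 13 log2 fold changes were above 0 in both genotypes in the fit of all libraries, from 0.14 for mt-Atp8 to 2.10 for mt-Nd3 in WT and from 0.11 to 2.40 for the same genes in KO. Without activated WT replicate 2 the WT values of mt-Atp6, mt-Co2 and mt-Nd5 were below 0 (-0.43, -0.02 and -0.01) and the WT median of the 13 fell from 0.70 to 0.25, and mt-Atp8 was below 0 in KO without quiescent KO replicate 4 (-0.09). Mt-Nd1, the subunit at the coenzyme Q site of complex I, had 3377, 5066, 4996 and 3857 CPM in quiescent WT and 3556, 7148, 3915 and 3401 CPM in quiescent KO libraries. It had 5970 and 10945 CPM in activated WT and 9607 and 10205 CPM in activated KO libraries. In both genotypes the activated libraries were above their own quiescent group, although quiescent KO replicate 2 passed activated WT replicate 1. The log2 fold changes were 0.97 ± 0.33 and 1.14 ± 0.33 (edgeR adjusted p = 0.0335 and 0.0123), and without activated WT replicate 2 the WT value was 0.52 (adjusted p = 0.443). The WT call of mt-Nd1 was also lost without quiescent WT replicate 1 or 4 (0.0766 and 0.0594), and its KO call without either activated KO library (0.0659 and 0.085). The KO calls of mt-Nd2, mt-Nd4, mt-Nd4l and mt-Nd6 were lost without either activated KO library too, with adjusted p = 0.0506 to 0.282 (edgeR), and those of all but mt-Nd4 also without some of the quiescent KO libraries.

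The 2 genes with the highest counts per length of all subunits, mt-Co1 and mt-Cytb, were not called. Mt-Co1 had 12262 to 17822 CPM in quiescent WT and 12108 to 22637 CPM in quiescent KO, and 16268 and 28362 CPM in activated WT and 24173 and 27149 CPM in activated KO libraries. The WT groups overlapped and the KO groups did not, with log2 fold changes of 0.55 and 0.74 (edgeR adjusted p = 0.205 and 0.0865), and mt-Cytb had 0.47 and 0.76 (0.293 and 0.0956). The strongest rises were in genes with nearly complete nuclear copies. Mt-Nd3 had 5.01 to 6.17 CPM in quiescent WT and 4.33 to 7.52 CPM in quiescent KO libraries, and 20.4 and 29.3 CPM in activated WT and 34.2 and 27.4 CPM in activated KO libraries. It rose by 2.10 ± 0.31 and 2.40 ± 0.30 on the log2 scale (edgeR adjusted p = 3.12e-05 and 5.21e-06), while its copy Gm28438 was not called (1.49 and 0.61). For mt-Co3 both rows rose, by 1.70 and 1.77 for the gene and by 1.14 and 1.68 for the copy Gm28437 (adjusted p = 0.0105 and 0.000326 for the copy). The 7 genes with under 50% of their windows shared (mt-Nd1, mt-Nd2, mt-Nd5, mt-Nd6, mt-Cytb, mt-Co1 and mt-Atp8) had lower medians than all 13, 0.55 in WT with 1 called and 0.76 in KO with 3 called. Mt-Atp8 is in this set although its counterpart in the block is unannotated and was not searched, so the set may not be free of copies. Its log2 fold changes, 0.14 and 0.11, were the lowest of the 13. The ribosomal RNAs of the organelle, which are not subunits, rose too, mt-Rnr1 by 2.40 and 1.93 and mt-Rnr2 by 1.77 and 1.55. In these libraries of polyA RNA the ribosomal RNA gene CT010467.1 also went from 0.295 to 0.807% of counts up to 11.5 to 40.3%. The part of ribosomal RNA carry-over in the rise of mt-Rnr1 and mt-Rnr2 was not tested.

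Set against the nuclear subunits, the mitochondrial median was higher by 0.36 in WT and by 0.31 in KO on the log2 scale (0.70 against 0.34, and 0.86 against 0.55). The same difference within single libraries had a pooled SD of 0.29 between libraries of a group, so both shifts were of the size of 1 SD, and without activated WT replicate 2 the WT value was 0.0498. The 13 include the low genes, whose counts cannot be read as levels of transcript. The 7 mitochondrial genes with mostly unshared windows, mt-Atp8 still among them, had lower medians, 0.55 in WT and 0.76 in KO. With these 7 the difference from the nuclear median was smaller in both genotypes, and under the SD of 0.29 found with all 13. With all 13 genes, the difference of medians was -0.04 for KO over WT in quiescent and 0.00 in activated cells. In activated cells it was 0.33 without activated WT replicate 2. As a share of counts without CT010467.1, the 13 mitochondrial genes took 3.29, 4.71, 4.37 and 3.07% in quiescent WT and 3.16, 6.57, 3.59 and 2.703% in quiescent KO libraries. They took 5.32 and 8.94% in activated WT and 7.67 and 8.66% in activated KO libraries. Every activated library was thus above every quiescent one but KO replicate 2. The nuclear genes took 0.260 to 0.345% in the quiescent and 0.386 to 0.505% in the activated libraries, with no overlap. The ratio of mitochondrial to nuclear counts was 10.3 to 19.0 in quiescent and 13.8 to 19.4 in activated libraries, which overlapped.

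**Figure D5:**
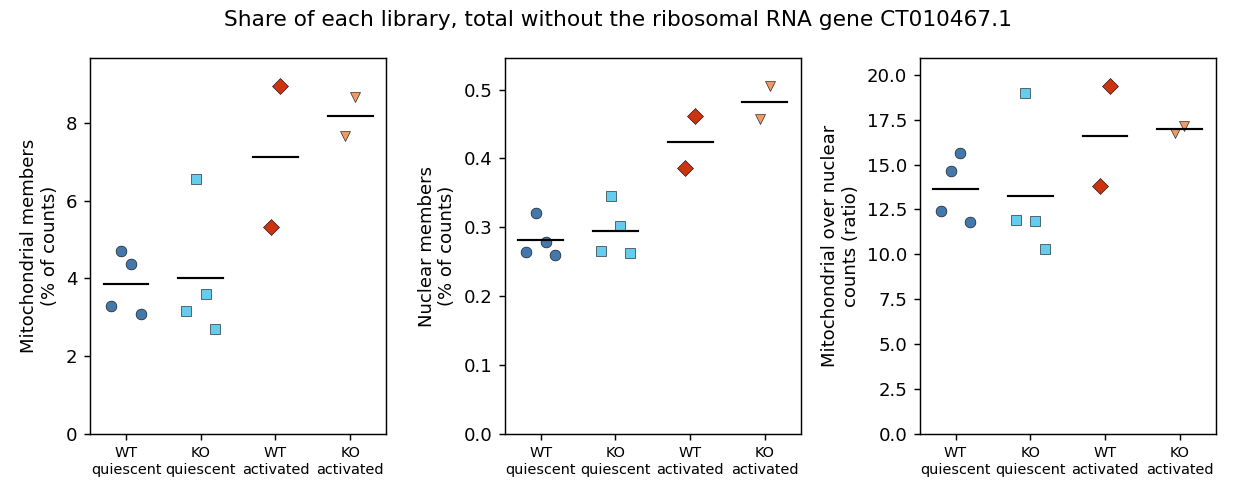
Share of counts of the 13 mitochondrial genes and of the nuclear subunits (percent of counts without CT010467.1), and the ratio of the former to the latter, in each of the 12 libraries (points; lines are group means). Nuclear shares of activated libraries (0.386 to 0.505%) lie above all quiescent ones (0.260 to 0.345%), while the ratios overlap.

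Genes that build and serve the complexes, taken from lists that hold none of the 100 subunits, were compared between activated and quiescent cells in the same way. The list of electron carriers does hold Cyc1, a subunit of complex III that the symbols leave out. Of 47 assembly factors, 25 rose in WT and 29 in KO and none fell (edgeR). Of all genes, 11.5% and 13.3% rose and 18.3% and 20.4% fell. Sdhaf1, which helps insert the iron-sulphur clusters of Sdhb, had log2 fold changes of 2.91 and 3.41, Cox10, an enzyme of haem A synthesis for complex IV, had 2.60 and 2.92, and Coa4 had 2.85 in WT. Of 29 factors of mitochondrial DNA and RNA, 16 rose and 1 fell in WT, and 13 rose and 1 fell in KO. They were led by the replicative helicase Twnk (3.28 and 3.31) and the transcription elongation factor Tefm (2.68 and 2.24), while the DNA polymerase Polg fell by 1.45 in WT and 1.31 in KO. Of 18 electron carriers and coenzyme Q synthesis genes, 8 rose and 2 fell in WT and 10 rose and 2 fell in KO, with Coq9 at 1.93 and 2.64 and Coq8b at -3.16 and -2.75. Of 10 regulators of mitochondrial biogenesis, 1 rose and 1 fell in WT (Esrra, a nuclear receptor, 1.85, and Pprc1, -1.05). In KO 3 rose and 1 fell, Ppargc1a, the coactivator PGC-1 alpha, at 1.59, Esrra at 1.44, Nrf1 at 0.92 and Pprc1 at -1.03. Among 77 mitochondrial ribosomal proteins 51 rose and 1 fell in WT (median 1.34) and 52 rose and 1 fell in KO (1.39), whereas of 82 cytosolic ribosomal proteins 8 rose and 22 fell in WT (-0.31) and 10 rose and 15 fell in KO (-0.16). No gene of these lists was called between KO and WT in either state.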

How the data were processed

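Counts per gene for the 12 libraries were made by the authors from paired-end reads of polyA RNA. The submitters' processing notes name Trim Galore 0.6.0, STAR 2.7.2a, DESeq2 1.34.0 and the build GRCm38.p6 (mm10), and the files hold GENCODE gene identifiers. How reads that fit several places, or strands, were treated is not given in the sources used here. The deposited counts were used as they stand. The FPKM values deposited by the authors, 1 pooled column per group, were used only to check the scale per length, and the authors' columns of fold changes and p-values were not used. No column belonged to a sample outside the series' groups.

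All 12 libraries entered 1 edgeR 4.0.16 quasi-likelihood fit (R 4.3.3, TMM scaling, filterByExpr) with a mean for each group, 25771 genes were tested, and p-values were adjusted by Benjamini-Hochberg over all of them. A gene was called at an adjusted p under 0.05. The study used DESeq2, which was run here (1.42.0) as an alternative. The script was tested on simulated data. CPM used the TMM-scaled totals, and CPM per kb the exon length of GENCODE M21. That length joins the exons of all annotated transcripts of a gene, so orders of genes per length depend on it. Windows of 100 bases were matched exactly between annotated exons. No pair of libraries agreed within sampling noise. Medians over a list carry no test. Total counts per library set the precision.

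The genes named are the 13 mitochondrial ones, the tissue forms and their partners, complex II, at most the 5 highest and 5 lowest called per comparison, the 2 highest per length in each complex, and at most the 3 highest and 3 lowest of other lists. Others are named as chosen after their values were seen. Members and lists were chosen with earlier results of these data known. Alternatives were another scaling, other filters, DESeq2, a fit of the compared groups only, the replicate number as a block, a 2-fold call, and leaving out each library. A further alternative, with only the mitochondrial genes with under 50% of their windows in another gene, was chosen after seeing the data.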

Additional observations from a re-analysis of the deposited data

Results flagged for a closer look

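In groups of 4 libraries, a library far from the other 3 was found for 8 of the 92 values checked, and chance flags about 1 in 20 groups. KO quiescent replicate 2, which had the highest mitochondrial share of counts of the quiescent libraries (6.57% without CT010467.1), stood above the other KO quiescent libraries for 5 of these. It had 7148 CPM of mt-Nd1 against 3401 to 3915 in the others, 6210 CPM of mt-Nd5 against 2817 to 3362, and 34.6 CPM of mt-Atp6 against 14.6 to 17.8. It also had 25.8 CPM of mt-Co3 against 11.6 to 13.7, and 74.0 CPM of Uqcrfs1 against 54.6 to 56.6. The mitochondrial genes moved together between libraries, so their flags are not separate findings. WT quiescent replicate 2 had 14.8 CPM of Ndufa4 against 4.65 to 5.88 in the other 3 libraries of its group. KO quiescent replicate 4 had 8.64 CPM of Cox7a2 against 5.32 to 5.86. KO quiescent replicate 3 had 0.374 CPM of Cox8c, where the other KO quiescent libraries had 0.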

How the results depend on the processing

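The 0 calls between KO and WT, and for the difference between states, stayed 0 for the subunits under every alternative run. The count of subunits called on activation ranged from 20 to 33 in WT and from 34 to 44 in KO over the alternatives other than leaving out a library, with 20 and 34 under a 2-fold minimum and 33 and 44 by DESeq2. Leaving out a library gave 15 (without activated WT replicate 2) to 30 in WT and 22 (without activated KO replicate 2) to 47 in KO, and 0 to 0 in the other comparisons. No call of the genes named by rule changed direction, and the other called subunits were not followed for direction. The mitochondrial minus the nuclear median, on the log2 scale, ranged when a library was left out from -0.27 (without quiescent KO replicate 2) to 0.04 for KO over WT in quiescent cells and from -0.20 to 0.33 in activated cells, so that its sign changed in both. It ranged from 0.0498 (without activated WT replicate 2) to 0.52 for activation in WT and from 0.19 to 0.53 in KO. For activation in the fit of all libraries, it was smaller in both genotypes with only the 7 mitochondrial genes with mostly unshared windows than with all 13. The mitochondrial share of counts was 4.99% in activated WT and 6.48% in activated KO libraries of all counts, 7.13 and 8.17% without CT010467.1, and 7.63 and 8.69% of protein-coding counts. With the low-count filter set to a mean of 10 counts, 43.7% and 48.3% of all genes were called on activation and the medians of all genes were -0.46 and -0.49.

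Deviations of same-numbered WT and KO libraries had r of 0.05, 0.122, -0.05 and 0.296 in quiescent cells, against -0.208 to 0.0753 for differently numbered ones. With 2 libraries a group, r in activated cells is -0.0236 or 0.0236 for every pair and cannot show pairing. Whether the replicate numbers pair the libraries is therefore not settled. With the replicate number as a block, 27 subunits were called on activation in WT and 41 in KO, and 0 between genotypes. The depth of the activated libraries and their number, 2 a group, limit the comparison of genotypes in that state.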
